A study of Mus musculus with 24 samples.

Results

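The 9 genes described here, Clec9a, Xcr1, Batf3, Irf8, Cadm1, Tlr3, Wdfy4, Flt3 and Zbtb46, are associated with type 1 conventional dendritic cells (cDC1). They were chosen by symbol, and all 9 had values among the 16996 genes measured. RNA-seq was performed on CD45+ leukocytes that had been pulled with magnetic beads from tumors of EMT6-hHER2, a clone of a murine breast cancer line carrying human HER2 that was derived from a single sorted cell. The hosts were wild-type, immunocompetent female Balb/c mice, 10 to 12 weeks of age per the labels, with the tumor in the mammary fat pad. Each of the 24 samples came from 1 mouse, with 6 mice left untreated and 6 given each of 3 agents intravenously when the tumor measured 80 mm3: trastuzumab at 20 mg/kg, an antibody against HER2, T-DM1 at 15 mg/kg, an antibody-drug conjugate with a microtubule toxin, or T-PNU at 1 mg/kg, an antibody-drug conjugate with an anthracycline derivative. Tumors were collected on day 10 after treatment. Per the study's methods the T-PNU tumors had by then become smaller than at treatment, and the part of tumor size in the comparisons with T-PNU was not tested. The doses of the agents differed, so each comparison is between these regimens and not between equal doses.

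cDC1 are a sparse subset of dendritic cells that take up material from dying cells and present it on MHC class I to CD8 T cells, a process called cross-presentation. Their development requires the transcription factors IRF8 and BATF3 and depends on the growth factor receptor FLT3, while ZBTB46 is expressed by conventional dendritic cells as a class. Mature cDC1 carry CLEC9A, a receptor for actin exposed by dead cells, and XCR1, the receptor for the chemokine XCL1 that natural killer (NK) cells and CD8 T cells release. TLR3 senses double-stranded RNA in endosomes, CADM1 is an adhesion molecule and WDFY4 is needed for cross-presentation of cell-associated antigen. Clec9a and Xcr1 are the most restricted of the 9, whereas Irf8 is also expressed by B cells, macrophages and plasmacytoid dendritic cells, Wdfy4 by B cells, and Flt3 by plasmacytoid dendritic cells and progenitors.

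The bases just upstream of the start site are shown for Xcr1, the gene with the largest difference between conjugates, and for Zbtb46, the member that varied least. They come from RefSeq promoters on GRCm38.p6, where 8 of the 9 genes had an entry, and follow the reference strain rather than Balb/c. Capitals mark a match to the AP-1 motif TGANTCA, which BATF3 and its JUN partners bind. The Xcr1 sequence is on the minus strand at chr9:123862030-123862279 and the Zbtb46 sequence on the minus strand at chr2:181424389-181424638. The Xcr1 sequence ends at the annotated 5′ end of the gene, whereas the Zbtb46 sequence lies inside the gene as GENCODE gives it (chromosome 2, 181387762 to 181459426), in an intron of its longer transcripts and just before the start of a shorter one.
Xcr1: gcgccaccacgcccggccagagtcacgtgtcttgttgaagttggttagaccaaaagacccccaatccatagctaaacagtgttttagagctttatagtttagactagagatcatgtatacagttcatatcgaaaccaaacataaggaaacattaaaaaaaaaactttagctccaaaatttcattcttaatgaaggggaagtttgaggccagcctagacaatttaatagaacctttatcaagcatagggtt
Zbtb46: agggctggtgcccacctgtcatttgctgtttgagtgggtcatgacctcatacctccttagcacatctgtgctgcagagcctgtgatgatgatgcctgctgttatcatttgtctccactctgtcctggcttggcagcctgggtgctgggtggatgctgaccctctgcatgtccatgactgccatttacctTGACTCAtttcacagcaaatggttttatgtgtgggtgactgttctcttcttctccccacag

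The Zbtb46 sequence held 1 AP-1 match, whose first base lay at -61 from the start site of that entry, inside the gene, and the Xcr1 sequence held none. The windows of Clec9a, Batf3 and Tlr3 overlapped annotated exons, so not every entry lies wholly outside transcribed sequence. Among the 9 promoter entries of the set, which include 2 for Irf8, this was the only match on either strand, while 6.75% of all 32851 promoter windows held one. The interferon-stimulated response element, searched as a pair of GAAA runs with 2 bases between, was in 0 of the 9 entries and in 2.98% of all windows. The composite element that IRF and BATF factors read together, searched as TTTC and 4 further bases ahead of the AP-1 motif, was in 0 entries and in 0.0974% of windows. These are matches of letters and were not tested as sites.

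Ptprc, which encodes CD45, stood between 14.01 and 15.52 on the log2 scale in the 24 samples. Genes of cells other than leukocytes were present too, with Krt8 between 11.69 and 13.77 and Col1a1 between 11.49 and 14.46. The deposited values were normalized and on a log2 scale, without counts, so the depth behind them is unknown, and the median of a sample lay between 8.73 and 8.87. The published heatmaps label 20 of the samples, leaving out 2 untreated mice, B1 and C1, and 2 given trastuzumab, E2 and B3. C1 held the highest value of Clec9a, Xcr1, Batf3, Irf8 and Cadm1 in the whole series. All 24 samples were therefore used first, and the results of the 9 genes are given again for the 20 samples and without C1 wherever the call differed. C1 was singled out by its values of these genes, so p-values of fits without it do not allow for that choice. All untreated samples have the number 1 in their code and all T-DM1 samples the number 3, so between these 2 groups alone the code number and the treatment cannot be told apart. Of the other samples, only T-PNU G1 and H1 have the number 1, and only trastuzumab A3 and B3 the number 3. A fit with the code number as a term rests on this partial overlap. The mouse numbers of untreated animals also form a series apart from those of treated animals. In bulk RNA a smaller number of cDC1 and less RNA per cDC1 cannot be told apart.

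Per kilobase of exon, Irf8 was the most abundant of the 9 genes (9.68 on the log2 scale, averaged over the 24 samples), followed by Cadm1 (8.77), Wdfy4 (8.30) and Tlr3 (7.65). The others were lower, with Clec9a at 5.32, Flt3 at 5.30, Xcr1 at 4.93, Batf3 at 4.64 and Zbtb46 at 4.57. Clec9a (ENSMUSG00000046080, chromosome 6, 129408862 to 129424763 on GRCm38) ran from 6.15 to 8.41 on the log2 scale over the 24 samples and Xcr1 (ENSMUSG00000060509, chromosome 9, 123852315 to 123862029) from 5.81 to 8.56. Zbtb46 varied least, from 7.22 to 7.99.

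T-PNU and T-DM1, the conjugates with an anthracycline and a microtubule payload, differed in 4 of the 9 genes, all higher with T-PNU. These were Xcr1, Clec9a, Irf8 and Wdfy4 (limma, adjusted p under 0.05 over all genes), where 12.4% of all 16996 genes were called higher in this comparison. Batf3, Cadm1, Tlr3 and Flt3 also had positive log2 fold changes without passing, and that of Zbtb46 was -0.06, so that 8 of 9 were above 0, as were 54.2% of all genes. The median log2 fold change was 0.47 over the 9 genes and 0.03 over all genes.

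**Figure D1:**
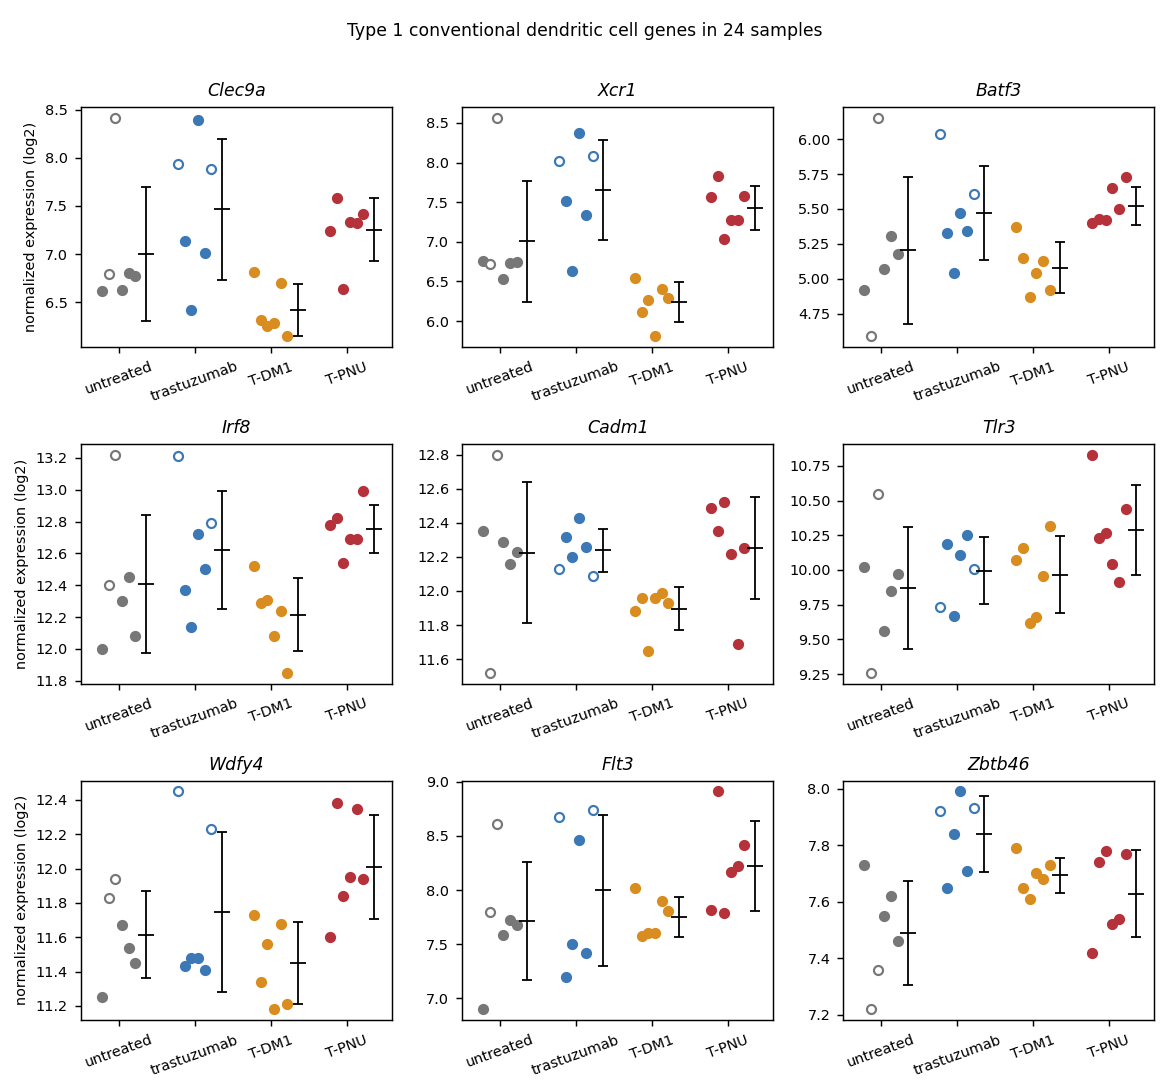
Normalized expression (log2, vertical axes differing between panels) of the 9 genes by group, with 1 point per mouse, open for the 4 samples absent from the published heatmaps, and the mean with its standard deviation (n = 6) in black. For Xcr1 the 6 T-DM1 samples lie between 5.81 and 6.54, below all 6 T-PNU samples, and the untreated sample C1 stands at 8.56.

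Xcr1, the chemokine receptor, had log2 values of 7.04, 7.42 and 7.83 (lowest, median and highest) with T-PNU and of 5.81, 6.28 and 6.54 with T-DM1. The 2 groups did not overlap. The difference was 1.19 (standard error 0.29, limma adjusted p = 0.00573), or 2.28-fold, and it passed in all 24 fits that left out 1 sample. Clec9a, the receptor for dead cells, averaged 7.26 ± 0.32 (SD, n = 6) after T-PNU, with values from 6.64 to 7.58, and 6.42 ± 0.27 (SD, n = 6) after T-DM1, with values from 6.15 to 6.81. All T-PNU samples but A2, at 6.64, lay above every T-DM1 sample. The difference of 0.83 (standard error 0.30, limma adjusted p = 0.0378) was lost in 8 of those 24 fits, without T-PNU H1, B2, C2 or D2 or T-DM1 D3, E3, F3 or H3, at adjusted p-values from 0.0618 to 0.0878 and log2 differences from 0.77 to 0.82.

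Of the transcription factors, Irf8 (ENSMUSG00000041515, chromosome 8, 120736358 to 120756694) had values of 12.54, 12.73 and 12.99 with T-PNU (lowest, median and highest) and of 11.85, 12.27 and 12.52 with T-DM1. The groups met without overlapping, with T-PNU A2 just above T-DM1 C3. The difference was 0.54 (standard error 0.17, limma adjusted p = 0.0244), and it no longer passed without T-PNU H1 or D2 or T-DM1 F3 or H3, at log2 differences of 0.46 to 0.52 and adjusted p-values of 0.0508 to 0.0554. Batf3 (ENSMUSG00000026630, chromosome 1, 191097847 to 191108945) also did not overlap between groups, with medians of 5.46 and 5.09, the lowest T-PNU value in G1 and the highest T-DM1 value, 5.37, in C3. Its difference of 0.44 (standard error 0.19) had a limma adjusted p of 0.0743 over the 24 samples, 0.0488 without untreated B1, 0.0200 without untreated C1 and 0.00258 over the 20 samples. These 3 genes, Xcr1, Irf8 and Batf3, were the members without overlap, and 5.45% of all genes were higher with T-PNU in this way. The 2-sided exact permutation p for each was 0.00216, the smallest that 6 against 6 samples allow.

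Wdfy4 (ENSMUSG00000051506, chromosome 14, 32959547 to 33185508), the cross-presentation gene, averaged 12.01 ± 0.30 (SD, n = 6) after T-PNU and 11.45 ± 0.24 (SD, n = 6) after T-DM1. With T-PNU, 5 of 6 samples lay above every T-DM1 sample. The difference was 0.56 (standard error 0.18, limma adjusted p = 0.0233), and it no longer passed without T-PNU H1 or C2 or T-DM1 F3, with log2 differences of 0.49, 0.49 and 0.51 and adjusted p-values of 0.0686, 0.0597 and 0.0589. Cadm1 (ENSMUSG00000032076, chromosome 9, 47530173 to 47857637), the adhesion molecule, had a difference of 0.36 (standard error 0.15, limma adjusted p = 0.0703). Its value in T-PNU C2, 11.69, lay among those of T-DM1, from 11.65 to 11.99, and the other T-PNU samples lay between 12.22 and 12.52. It passed without C2 (0.47, adjusted p = 0.0197), without untreated B1 (0.36, adjusted p = 0.0248) or C1 (0.36, adjusted p = 0.0398), and over the 20 samples (0.36, adjusted p = 0.0118). The log2 fold changes of Flt3 (0.47, 95% interval -0.09 to 1.03), Tlr3 (0.32, -0.05 to 0.70) and Zbtb46 (-0.06, -0.25 to 0.12) were not called. Over the 20 samples, in which these 12 mice are the same and the spread is estimated without the 4 others, 6 of the 9 genes were higher, against 19.8% of all genes.

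Leaving out single mice moved the count of 4 to as few as 1, without T-PNU H1 or T-DM1 F3, and 2 without T-PNU D2 or T-DM1 H3, and to 6 without untreated B1 or C1 (14.4% of all genes were called higher without C1). For the other fits of this kind the share of all genes was not taken. Whether calls over all genes moved with these counts is therefore not known. With the code number as a term in the fit, 0 of the 9 genes passed and the errors were larger, with Xcr1 at a log2 difference of 1.13 (standard error 0.56, limma adjusted p = 0.368). In that fit 0 of all genes passed in this comparison, and T-DM1 samples share the number 3 with trastuzumab samples A3 and B3 only.

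Markers of other cells differed between the same samples, where 12.4% of all genes were called higher with T-PNU and 17.4% lower. All 5 measured markers of the NK cell list, which was added after the data had been seen, were higher with T-PNU (Ncr1, Klrb1c, Eomes, Klre1 and Gzma, limma log2 fold changes from 0.63 to 0.84). Their mean deviation from the average over the 24 samples ran from 0.04 to 0.68 with T-PNU and from -0.51 to 0.07 with T-DM1. Of 10 macrophage and monocyte markers, 4 were higher, Adgre1 (0.86), Mertk (0.93), C1qa (0.72) and C1qb (0.83), with list levels of -0.01 to 0.42 with T-PNU and -0.57 to 0.06 with T-DM1. Of 10 tumor and stromal markers 4 were higher, among them Pecam1 (0.72) of endothelium, and 4 lower, among them Col1a1 (-1.62) of fibroblasts. B cell markers (0 of 9) and T cell markers (0 of 8) did not pass, although all 17 had positive log2 fold changes. Their list levels ran from -1.92 to 2.12 for B cells and -0.47 to 1.89 for T cells with T-PNU, and from -1.96 to 1.28 and -1.39 to 0.82 with T-DM1. The lowest value of any gene in the series was 1.13, so no value here shows that a marker was absent. Their part in the differences of the cDC1 genes was not tested.

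**Figure D2:**
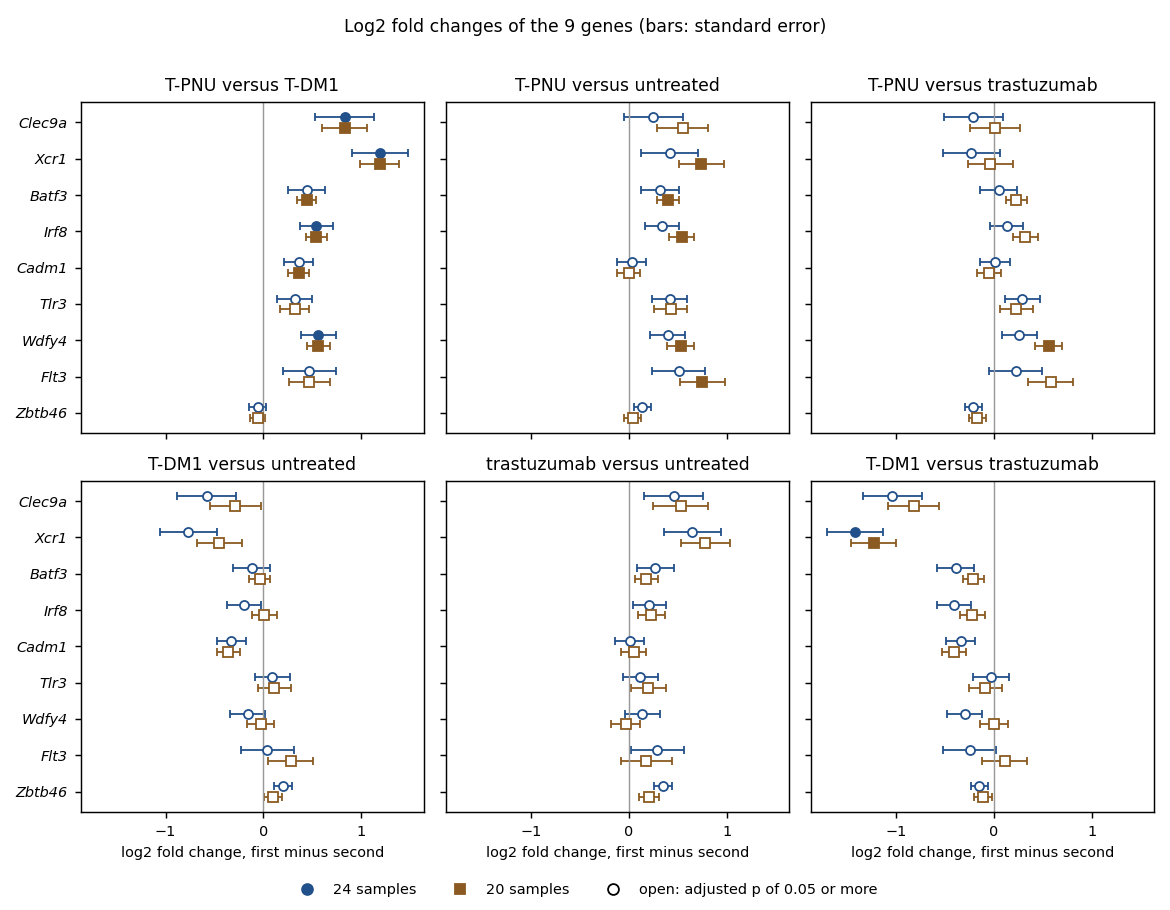
Log2 fold changes (first group minus second, bars of 1 standard error) of the 9 genes in the 6 comparisons, in circles for 24 and squares for 20 samples, filled where the limma adjusted p was under 0.05. Filled symbols are in the T-PNU versus T-DM1 panel for 4 and 6 genes, where 12.4% and 19.8% of all genes were called higher. In the T-PNU versus untreated panel they are for 0 and 5, where 0.188% of all genes were called and 15.3% were called higher. T-DM1 versus trastuzumab has 1 and 1, Xcr1 (0.435% and 0.694% lower). T-PNU versus trastuzumab has 0 and 1, Wdfy4 (0.00588% called and 14.6% higher).

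T-DM1 was also lower than trastuzumab, the naked antibody, in Xcr1. The trastuzumab values of Xcr1 were 6.63, 7.76 and 8.37 (lowest, median and highest), all above the highest T-DM1 value of 6.54. The log2 fold change was -1.42 (standard error 0.29, limma adjusted p = 0.0232), and Xcr1 was the 1 gene of 9 called, against 0.435% of all genes called lower. The call was lost without trastuzumab E2, H2 or B3 or T-DM1 D3, E3 or F3, at log2 fold changes from -1.43 to -1.28 and adjusted p-values up to 0.0688, and it held over the 20 samples (-1.23, adjusted p = 0.0134, with 0.694% of all genes lower). It was lost too with the code number as a term (-1.47, limma adjusted p = 0.371). All 9 genes had negative log2 fold changes, with a median of -0.34 beside 0.00 over all genes, of which 49.6% were above 0. Clec9a had one of -1.04 (95% interval -1.66 to -0.43, limma adjusted p = 0.102) and passed without untreated C1 (-1.04, adjusted p = 0.0243) or trastuzumab G2 (-1.25, adjusted p = 0.0339). Cadm1 was tighter, with trastuzumab values of 12.09 to 12.43 all above T-DM1 values of 11.65 to 11.99, and its log2 fold change of -0.34 (standard error 0.15) had a limma adjusted p of 0.263. Xcr1 and Cadm1 were the 2 members without overlap here, and 1.37% of all genes were lower with T-DM1 in this way. Among the marker lists 1 of 10 macrophage and monocyte genes passed, C1qb, with -0.88 (limma adjusted p = 0.0306), and 0 of 5 NK cell markers.

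Between T-PNU and untreated samples, the comparison that asks what this conjugate left behind in the tumor, no difference passed the test over the 24 samples (limma, 0 of 9 at an adjusted p under 0.05 and 2, Tlr3 and Wdfy4, at an unadjusted p under 0.05). Of all genes 0.188% were called and 24.8% had an unadjusted p under 0.05. All 9 had positive log2 fold changes, as 51.5% of all genes did, with a median of 0.34 beside 0.01 over all genes. Clec9a had a median of 7.32 with T-PNU and of 6.78 in untreated mice, of which 5 lay between 6.62 and 6.80 and C1 at 8.41, and its standard deviation was 0.32 and 0.69 (n = 6 each). Xcr1 was at 6.53 to 6.76 in the same 5 untreated samples and at 8.56 in C1, above every T-PNU sample.

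Without C1, 4 of the 9 genes were higher with T-PNU, Xcr1 (0.73, limma adjusted p = 0.0280), Batf3 (0.51, adjusted p = 0.0229), Irf8 (0.50, adjusted p = 0.0244) and Tlr3 (0.55, adjusted p = 0.0287), against 7.55% of all genes. C1 was picked for its high values of several of these genes, and these p-values do not allow for that choice. Leaving out any other single mouse left 0 of the 9 called. Over the 20 samples, which lack C1 too, 5 were higher, against 15.3% of all genes. These were Xcr1 (0.74, limma adjusted p = 0.0227), Batf3 (0.40, adjusted p = 0.0147), Irf8 (0.54, adjusted p = 0.00677), Wdfy4 (0.53, adjusted p = 0.0109) and Flt3 (0.75, adjusted p = 0.0224). Clec9a had a log2 fold change of 0.55 over the 20 samples with an adjusted p of 0.106, and Cadm1 one of 0.00 (standard error 0.12). Of the 4 samples left out, B1, E2 and B3 had high B cell list levels (1.81, 2.13 and 1.85), and C1 had -0.97. T-PNU samples H1 and C2, with levels of 2.12 and 1.93, stayed in. The 20 samples are thus not balanced in lymphocyte markers, and the part of this in their calls was not tested. In the 20 samples, 5 of 5 NK cell markers, 8 of 8 T cell markers, 7 of 10 plasmacytoid dendritic cell genes and 3 of 10 macrophage and monocyte markers were called higher too, and 0 of 9 B cell markers. Without C1 the counts were 5, 0, 6, 5 and 0 in the same order. Over the 24 samples 1 of these genes passed, the monocyte marker Ly6c2 (1.04, limma adjusted p = 0.0463). The part of these cells in the values of the cDC1 genes was not tested.

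In the 3 other comparisons 0 of the 9 genes passed over the 24 samples. Between T-PNU and trastuzumab, 1 gene had an unadjusted p under 0.05 (limma), Zbtb46, with a log2 fold change of -0.21 and an adjusted p of 0.219, while 0.00588% of all genes were called and 19.5% had an unadjusted p under 0.05. Clec9a differed there by -0.21 (95% interval -0.82 to 0.41) and Xcr1 by -0.23 (-0.83 to 0.37). Over the 20 samples Wdfy4 was higher with T-PNU (0.56, limma adjusted p = 0.0128), in a fit that called 14.6% of all genes higher. Its trastuzumab values in E2 and B3, 12.45 and 12.23, stood apart from the other 4, between 11.41 and 11.48. Between trastuzumab and untreated samples 2 genes had an unadjusted p under 0.05, Xcr1 (0.65, limma adjusted p = 0.523) and Zbtb46 (0.35, adjusted p = 0.0943), while 0.259% of all genes were called and 8.77% had an unadjusted p under 0.05. Zbtb46 was at 7.65 to 7.99 with trastuzumab and 7.22 to 7.73 untreated, with 4 of 6 trastuzumab samples above every untreated one. Between T-DM1 and untreated samples 3 genes had an unadjusted p under 0.05, Xcr1 (-0.77, limma adjusted p = 0.108), Cadm1 (-0.33, adjusted p = 0.178) and Zbtb46 (0.20, adjusted p = 0.171), while 6.27% of all genes were called and 23.4% had an unadjusted p under 0.05. Of the T-DM1 samples 5 of 6 lay below every untreated sample in Xcr1. Cadm1 passed without untreated B1 (-0.47, adjusted p = 0.0286).

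In the order of group means, Xcr1 and Clec9a were highest with trastuzumab, followed by T-PNU, untreated and T-DM1, and the gap between neighbours was larger than the larger of their standard deviations for Xcr1 between untreated and T-DM1 (0.77 on the log2 scale, before rounding). Batf3, Irf8, Cadm1 and Wdfy4 had the order T-PNU, trastuzumab, untreated and T-DM1, with no such gap. Tlr3 and Flt3 were highest with T-PNU and lowest in untreated samples, and Zbtb46 was highest with trastuzumab (7.84 ± 0.13, SD, n = 6) and lowest untreated (7.49 ± 0.18, SD, n = 6), with a gap of 0.15 from trastuzumab to T-DM1 that was larger than either standard deviation. The spread among mice was itself unequal, with a standard deviation of Xcr1 of 0.77 untreated and 0.63 with trastuzumab, beside 0.26 with T-DM1 and 0.28 with T-PNU.

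The genes did not vary as 1 unit across mice. Xcr1 followed Clec9a most closely over the 24 samples (Pearson r = 0.96, Spearman rho = 0.92, permutation p = 1e-05 for each, the smallest that 100000 resamples can give, adjusted p = 2.67e-05 over 8 relations). Within groups, after the group means were removed, r was 0.95, and without C1 and H2, the samples farthest from the median of Clec9a, it was 0.94. Irf8 followed with r = 0.86 (rho = 0.89, 0.84 within groups), Batf3 with 0.81 (rho = 0.88, 0.77 within groups), Flt3 with 0.75 (rho = 0.73, 0.81 within groups) and Wdfy4 with 0.61 (rho = 0.68, 0.53 within groups), all with a permutation adjusted p under 0.05 in each form. Cadm1 had r = 0.49 (rho = 0.41, permutation adjusted p = 0.0207 and 0.0617), which was 0.28 within groups (adjusted p = 0.202), 0.26 without C1 and H2 and 0.45 over the 20 samples, so that it did not pass within groups. Tlr3 (r = 0.35, rho = 0.34, permutation adjusted p = 0.110 and 0.115) and Zbtb46 (r = 0.15, rho = 0.12, adjusted p = 0.481 and 0.588) did not pass.

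**Figure D3:**
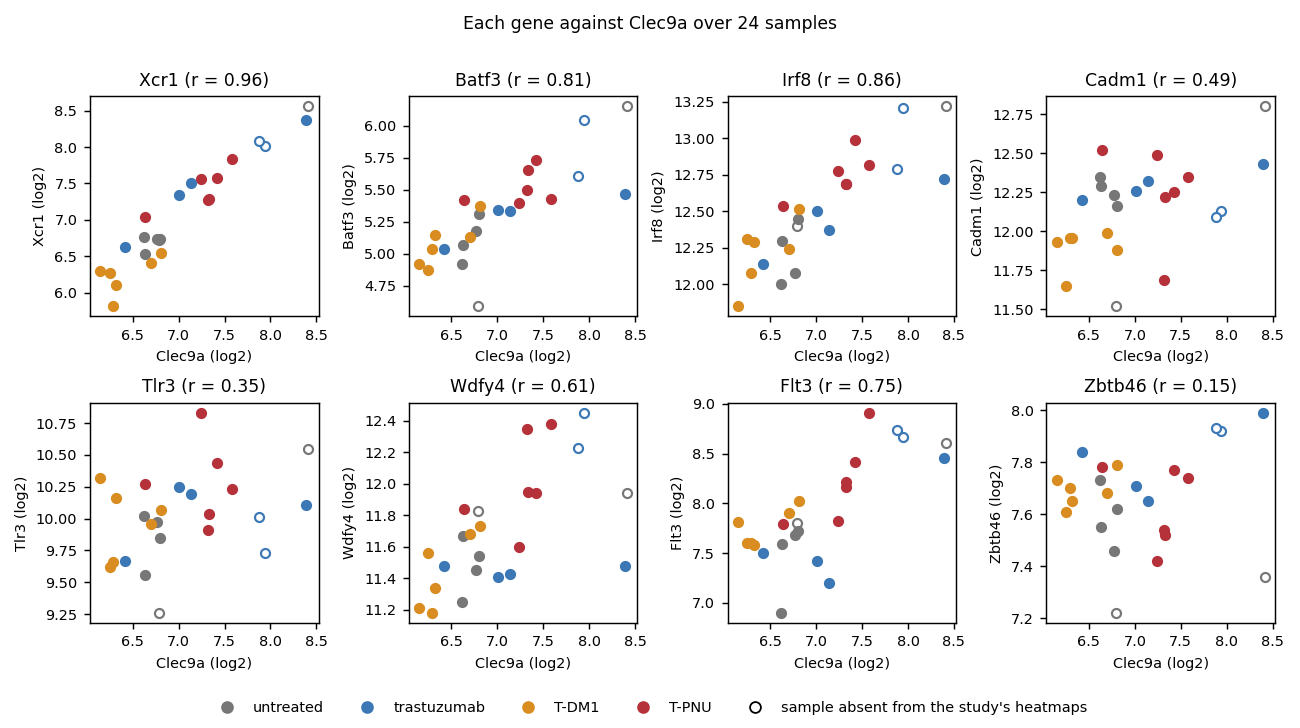
Log2 expression of each of the other 8 genes (vertical) against Clec9a (horizontal), with 1 point per mouse coloured by group and open for the 4 samples absent from the published heatmaps. Xcr1 follows Clec9a over the whole range (r = 0.96), while Zbtb46 does not (r = 0.15).

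Across the same mice the members were set against marker lists, each summarised per sample as the mean deviation of its genes, and some followed several lists. Cadm1 and Tlr3 followed the macrophage and monocyte list (r = 0.82 and 0.75, rho = 0.68 and 0.69, permutation adjusted p = 5e-05 and 0.000212 for r over 55 relations), with 0.83 and 0.73 within groups and 0.68 and 0.60 without B1 and C1, the samples farthest from the median of that list. Wdfy4 followed the B cell list (r = 0.80, rho = 0.80, permutation adjusted p = 9.17e-05) and the T cell list (r = 0.82, rho = 0.86, adjusted p = 5e-05), with 0.83 and 0.81 within groups. Without the 2 farthest samples these were 0.76 and 0.82. Wdfy4 followed the plasmacytoid dendritic cell list as closely (r = 0.83, rho = 0.83, permutation adjusted p = 5e-05, 0.86 within groups). Irf8 followed that list too (r = 0.79, rho = 0.81, permutation adjusted p = 5e-05, 0.84 within groups). Batf3 had r = 0.74 with the macrophage and monocyte list (rho = 0.67, permutation adjusted p = 0.000393, 0.66 within groups, 0.52 without B1 and C1). Flt3 followed the plasmacytoid dendritic cell list most closely (r = 0.91, rho = 0.89, permutation adjusted p = 5e-05, 0.91 within groups and 0.87 without A1 and E2).

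Clec9a and Xcr1 had weak relations with the B cell list (r = 0.29 and 0.20, rho = 0.44 and 0.23, permutation adjusted p = 0.254 and 0.416). With the T cell list r was 0.45 and 0.37 (permutation adjusted p = 0.0533 and 0.123). For Clec9a that relation passed by rank (rho = 0.57, permutation adjusted p = 0.00971) and within groups (0.47, adjusted p = 0.0431). Xcr1 passed in neither form (rho = 0.36, 0.35 within groups). Within groups Cadm1 and Tlr3 fell as the T cell list rose (-0.60 and -0.50, permutation adjusted p = 0.00541 and 0.0282). Before the group means were removed, r was -0.37 and -0.22 (permutation adjusted p = 0.123 and 0.394), which did not pass. Without C2 and B1, the samples farthest from the median of the T cell list, r was -0.09 and -0.02. Clec9a and Xcr1 followed the plasmacytoid dendritic cell list (r = 0.62 and 0.53, rho = 0.68 and 0.49, permutation adjusted p = 0.00391 and 0.0202, 0.76 and 0.66 within groups, 0.60 and 0.51 without A1 and E2). With the macrophage and monocyte list r was 0.48 and 0.56 (rho = 0.51 and 0.60, permutation adjusted p = 0.0392 and 0.00930), and within groups 0.33 and 0.43, which did not pass. They also followed the NK cell list (r = 0.84 and 0.83, rho = 0.85 and 0.76, permutation adjusted p = 5e-05 each). Within groups the relations to NK cell markers were 0.92 and 0.91, and without C1 and D2 they were 0.83 and 0.80. Batf3 and Flt3 had r = 0.81 each with that list (rho = 0.86 and 0.76, permutation adjusted p = 5e-05, 0.75 and 0.78 within groups, 0.76 and 0.77 without C1 and D2). Irf8 followed it too (r = 0.91, rho = 0.92, permutation adjusted p = 5e-05, 0.90 within groups, 0.89 without C1 and D2). Xcl1, the ligand of XCR1, followed Xcr1 with r = 0.85 (rho = 0.79, permutation adjusted p = 5e-05, 0.85 within groups and 0.80 without C1 and E2). The NK cell list and Xcl1 were added after the data had been seen, and the p-values of their relations do not allow for that choice. Relations with the tumor and stromal list were weak for every member, with r from -0.45 for Wdfy4 to 0.27 for Zbtb46, and none had a permutation adjusted p under 0.05. Of the 10 genes of that list, 4 were higher and 4 lower with T-PNU than with T-DM1. Its mean therefore does not measure the amount of tumor or stromal cells, and their part was not tested.

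**Figure D4:**
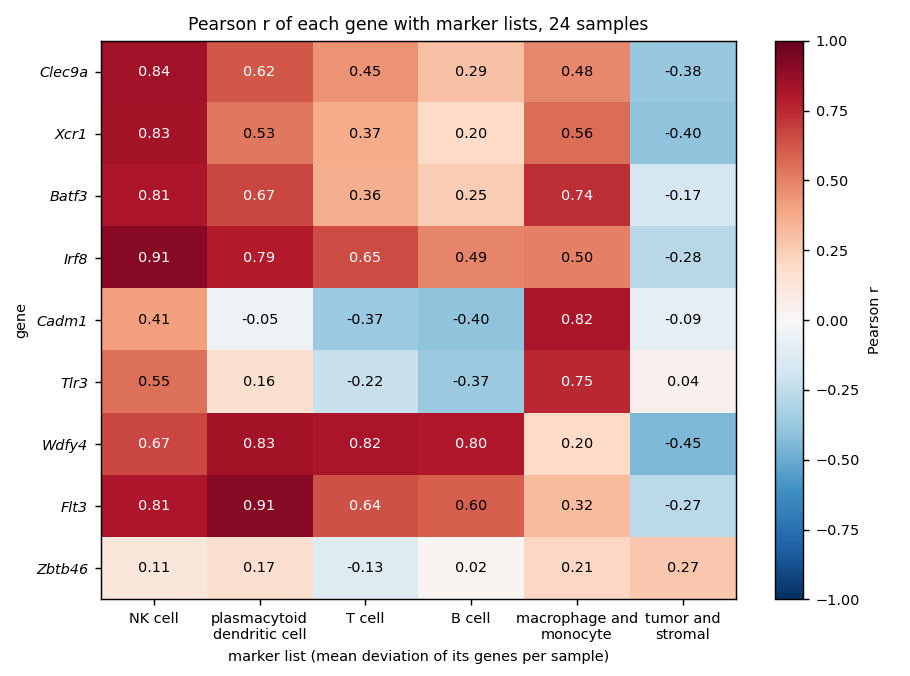
Pearson r over the 24 samples between each of the 9 genes (rows) and the level of 6 marker lists (columns), on a colour scale from -1 in blue to 1 in red. Clec9a, Xcr1, Batf3, Irf8 and Flt3 are red for NK cell markers (0.81 to 0.91), a list added after the data had been seen. Cadm1, Tlr3 and Batf3 are red for macrophage and monocyte markers (0.82, 0.75 and 0.74). Flt3, Wdfy4 and Irf8 are red for plasmacytoid dendritic cell genes (0.91, 0.83 and 0.79).

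Over the 24 samples the genes most like Clec9a, by Pearson r and given as a description, were Serpina3f (0.93), Serpina3g (0.93), Dlg2 (0.92), H2-Ea-ps (0.91) and Fam26f (0.91). Those most like Xcr1 were Serpina3h, Serpina3g and Serpina3f (0.93 each), Lrrc8c (0.92) and Aoah (0.92). The Serpina3 genes are a family of close copies, so their values are uncertain where reads could be shared among them. For the other members the nearest genes, chosen for display after their values were seen, were Unc93b1 for Batf3 (0.94), which carries endosomal Toll-like receptors to their compartment, Itgal for Irf8 (0.94), Hgf for Cadm1 (0.95), Eif2ak2 for Tlr3 (0.96), the interferon-induced kinase PKR, Rftn1 for Wdfy4 (0.97), Siglech for Flt3 (0.96), a surface marker of plasmacytoid dendritic cells, and Gpr4 for Zbtb46 (0.87).

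Of 12 further genes associated with cDC1, 2 were higher and 1 lower with T-PNU than with T-DM1 (limma, adjusted p under 0.05), with a median log2 fold change of 0.31. Of all genes 12.4% were called higher and 17.4% lower in this comparison. Ppt1, a lysosomal thioesterase, rose by 0.34 (adjusted p = 0.0419), Rab7b, a small GTPase of endosomes, by 0.45 (adjusted p = 0.0341), and Plpp1, a lipid phosphatase, fell by 0.71 on the log2 scale (adjusted p = 0.00289). At T-PNU means of 13.07 and 12, Ppt1 and Rab7b stood above Clec9a at 7.26. Which cells held their RNA was not tested. Itgae, which encodes CD103, had the largest value, 0.66 (standard error 0.28, adjusted p = 0.0773, and 0.0345 over the 20 samples, where 5 were higher and 1 lower). Over the 20 samples 19.8% of all genes were called higher and 20.1% lower. Against untreated samples 0 of the 12 were called, and Ifi205 had the largest value (0.77, adjusted p = 0.0706) and Plpp1 the smallest (-0.40, adjusted p = 0.117). Both passed over the 20 samples (0.75, limma adjusted p = 0.0112, and -0.57, adjusted p = 0.00839), where 2 of the 12 were higher and 1 lower. Of all genes 15.3% were called higher there and 15.7% lower. Ifi205 was higher with T-DM1 than untreated (0.78, limma adjusted p = 0.0364). Without C1, 3 of the 12 were called higher and 1 lower against untreated samples, with 7.55% of all genes called higher.

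Among signals that attract or sustain cDC1, 5 of 6 listed genes had values, and the ligand gene Flt3l was among those not analysed here. Xcl1 was higher with T-PNU than with T-DM1 (0.58, standard error 0.21, limma adjusted p = 0.0422), at group means of 7.75 and 7.17, and was the 1 gene called of the 5. Of all genes 12.4% were called higher in this comparison. Csf2, the cytokine GM-CSF, had the smallest value (-0.70, adjusted p = 0.0775, and 0.0206 over the 20 samples). Against untreated samples 0 of 5 were called, with Ccl5 at 0.61 (adjusted p = 0.115) and Csf2 at -0.52 (adjusted p = 0.269). Of the 5 genes, 3 passed over the 20 samples, Ccl5 (0.79, limma adjusted p = 0.00503) and Xcl1 (0.64, adjusted p = 0.0208) higher and Csf2 lower (-0.86, adjusted p = 0.0195). In that fit 15.3% of all genes were called higher and 15.7% lower. Of 6 cytokines, chemokines and costimulators that cDC1 produce, 0 were called in either comparison over the 24 samples. Cxcl9, a chemokine for activated T cells, had the largest log2 fold change against T-DM1 (0.39, adjusted p = 0.238) and Il12b the smallest (-0.02, adjusted p = 0.939). Against untreated samples Il15 was the largest (0.50, adjusted p = 0.113) and Cxcl9 the smallest (-0.13, adjusted p = 0.758). With 20 samples 1 of the 6 was higher in each comparison, Cxcl10 against T-DM1 (0.37, limma adjusted p = 0.0196) and Il15 against untreated samples (0.55, adjusted p = 0.0190). The shares of all genes called higher were 19.8% and 15.3%.

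Genes of the neighbouring dendritic cells were set beside them. With T-PNU 12.4% of all genes were called higher than with T-DM1 and 17.4% lower. Over the 20 samples these shares were 19.8% and 20.1%. Of 10 genes of type 2 conventional dendritic cells, 2 were higher with T-PNU than with T-DM1 (limma), Sirpa (0.57, adjusted p = 0.0205) and Cd1d1 (0.59, adjusted p = 0.0435). Irf4 had the largest value, 0.91 (standard error 0.51, adjusted p = 0.171), and Klf4 the smallest, -0.31 (adjusted p = 0.0522, and 0.0342 over the 20 samples, where 4 genes were higher and 1 lower). Of 10 plasmacytoid dendritic cell genes, 1 was higher, the chemokine receptor Ccr9 (0.73, limma adjusted p = 0.0391), and Bst2 had the smallest value (-0.20, adjusted p = 0.369). Of 12 pan-dendritic and maturation genes, 3 were higher, Cd86 (0.40, limma adjusted p = 0.00488), H2-Aa (0.67, adjusted p = 0.0304) and Cd74 (0.59, adjusted p = 0.0357), and 2 lower, Fscn1, an actin-bundling protein of mature dendritic cells that fibroblasts and tumor cells also express (-1.13, adjusted p = 0.00247), and Ccl17 (-0.43, adjusted p = 0.0376). Cd86, H2-Aa and Cd74, of costimulation and MHC class II, are also expressed by macrophages and B cells. In the 20 samples 2 plasmacytoid genes were higher, and 5 of the pan-dendritic and maturation genes were higher and 2 lower. Against untreated samples 0 genes of these 3 lists were called over the 24 samples, and 4, 7 and 5 genes, all higher, over the 20. Over the 20, 15.3% of all genes were called higher.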

How the data were processed

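The authors deposited normalized log2 values for 16996 genes in 24 samples. The transformation is not given in the sources used here. If it shrinks low values, the fold changes and per-kilobase levels of genes of low expression, such as Clec9a and Xcr1, are drawn toward the middle. Per the submitters' processing notes, STAR 2.4.2a, Picard, featureCounts from Subread 1.5.0, DESeq2 and the build mm10 were used, and the study's methods state a filter on average counts. Since no counts were used, count models and counting intervals do not apply. p-values measure the spread between mice.

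The 24 samples and 4 groups entered 1 linear model (limma 3.58.1, R 4.3.3, eBayes with trend), with no covariate, no further filter and Benjamini-Hochberg adjustment over all genes. The threshold was an adjusted p under 0.05. Confidence intervals of single differences are those of limma at 95% and are not adjusted. List levels are mean deviations of the genes of a list from their averages over the 24 samples. Correlations were tested by 2-sided permutation with 100000 resamples (NumPy 2.4.6), with adjusted p-values over 8 relations to Clec9a and 55 to marker lists. The limma fit was tested on simulated data with independent noise for each gene. The correlations, list levels and motif search were not tested in this way.

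The 14 lists hold 119 genes, of which 3 had no values. Members, lists and tests were chosen with earlier results of these data known. The genes named were the members and, per list, the largest and smallest log2 fold change in T-PNU against untreated and against T-DM1 and genes with an adjusted p under 0.05, with the marker lists of other cells summarised by counts and examples. In the lists not described above, 1 of 6 neutrophil markers was higher with T-PNU than with T-DM1 (Retnlg, 0.84) and 0 of 6 lymph node homing genes, beside 12.4% of all genes. All 6 homing genes had positive log2 fold changes (median 0.83). Over the 20 samples T-PNU was higher than untreated, trastuzumab and T-DM1 in 4, 4 and 1 homing genes and in 3, 0 and 3 neutrophil markers. It was lower than T-DM1 in 1 neutrophil marker. The shares of all genes higher were 15.3%, 14.6% and 19.8%, and 20.1% were lower than with T-DM1. Gene positions and exon lengths are from GENCODE M21 on GRCm38, in which 99.6% of the identifiers were found. Alternatives are described in the closing section. Figures were drawn with matplotlib 3.10.9.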

Additional observations from a re-analysis of the deposited data

Results flagged for a closer look

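Each gene was examined in each group for a sample whose gap to its nearest neighbour was large relative to the range of the 6 samples (above Dixon's 95% critical value). Of 36 combinations of gene and group, 6 passed, where chance passes about 1 in 20 for a single combination. The combinations are not independent, because each mouse gives the values of all 9 genes, so the count does not show an excess. Untreated sample C1 stood far above the others of its group in Clec9a (8.41, next 6.80, gap 0.899 of the range), Xcr1 (8.56, next 6.76, gap 0.887) and Irf8 (13.22, next 12.45, gap 0.633). In the same sample the level of the NK cell markers was 0.75 and that of the macrophage and monocyte markers 0.74, the highest of the untreated samples for both lists. T-PNU sample A2 was low in Clec9a (6.64, next 7.24, gap 0.641). T-PNU sample C2 was low in Cadm1 (11.69, next 12.22, gap 0.642), as was T-DM1 sample E3 (11.65, next 11.88, gap 0.686).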

How the results depend on the processing

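Among the log2 fold changes of single genes, 309 values under other settings and 1242 with a mouse left out kept their direction and their side of the threshold, while 23 and 12 passed newly, 5 and 21 no longer passed and 11 and 21 changed sign. The exact permutation test, set against limma at an unadjusted p under 0.05, gave the same side for 48 values, passed 3 more and did not pass 3. Over the 20 samples the number of genes called was 5 for T-PNU against untreated and 1 for T-PNU against trastuzumab, beside 0 each. With sample weights it was 6 for T-PNU against untreated (17.1% of all genes higher), 7 for T-PNU against T-DM1 (4 without weights; 21.9% higher), 1 lower for T-DM1 against untreated (0; 8.43% lower) and 3 lower for T-DM1 against trastuzumab (1; 3.77% lower). Among genes with a mean above the median, a filter that removes Clec9a, Xcr1, Batf3, Flt3 and Zbtb46, it was 2 for T-PNU against T-DM1 (14.3% higher) and 0 for T-DM1 against trastuzumab (0.0471% lower). With the code number as a term it was 0 for both (0% and 0.0118% of all genes), and at an adjusted p under 0.01 with a fold change above 2 it was 1 and 0 (0.188% higher and 0.0647% lower). Fitting only T-DM1 and trastuzumab gave 2 (1.44% lower). The relation of Cadm1 to Clec9a over the 20 samples had r = 0.45 and no longer passed (permutation adjusted p = 0.0632). With each mouse left out the count ran from 0 to 4 for T-PNU against untreated, 1 to 6 for T-PNU against T-DM1, 0 to 1 for T-DM1 against untreated and 0 to 2 for T-DM1 against trastuzumab, and stayed at 0 in the 2 other comparisons. Of these fits only those without C1 have a share of all genes beside them, so the ranges cannot be set against all genes.

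Signs turned for values not called over the 24 samples (limma), from -0.33 to 0.14 there. Over the 20 samples these were Cadm1 in T-PNU against untreated (0.00), Clec9a (0.01) and Cadm1 (-0.05) in T-PNU against trastuzumab, Irf8 in T-DM1 against untreated (0.01), Wdfy4 in trastuzumab against untreated (-0.03) and Flt3 in T-DM1 against trastuzumab (0.11). With quantile normalization they were Batf3 (-0.03) and Cadm1 (-0.02) in T-PNU against trastuzumab and Flt3 in T-DM1 against untreated (-0.02), and with the code number Cadm1 in T-PNU against trastuzumab (-0.10) and in T-DM1 against untreated (0.01). With mice left out, log2 fold changes crossed 0 for Cadm1 in T-PNU against untreated (-0.11 to 0.14), T-PNU against trastuzumab (-0.04 to 0.13) and trastuzumab against untreated (-0.13 to 0.13), Batf3 in T-PNU against trastuzumab (-0.04 to 0.16) and T-DM1 against untreated (-0.24 to 0.07), Tlr3 in T-DM1 against untreated (-0.03 to 0.23) and against trastuzumab (-0.10 to 0.04), Flt3 in T-DM1 against untreated (-0.13 to 0.22) and Wdfy4 in trastuzumab against untreated (-0.01 to 0.20). The cause was not tested. No paired analysis was possible because the labels carry no replicate numbers that pair mice across groups. Depth is unknown, so its part in these limits was not tested.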
